A study of Mus musculus with 8 samples.

Results

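Costimulatory and coinhibitory ligands sit on antigen-presenting cells and tell a T cell whether to respond, and the 10 genes described here are 7 of these molecules with 3 receptors. The ligand side holds Cd80, Cd86, Icosl, Cd274 and Pdcd1lg2 of the B7 family, the TNF receptor family member Cd40, through which T cells license the presenting cell, and the activation marker Cd83. The receptor side holds Cd28, the inhibitory receptor Btla and its ligand Tnfrsf14 (HVEM). The 10 genes were chosen by their symbols. Each symbol was matched through GENCODE (GRCm38) to 1 Ensembl identifier of the count table, which holds 51826 genes. All 10 were found, and all 10 passed the filter on low counts that left 16484 genes.

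RNA was sequenced from total splenocytes, the white cells of the spleen after lysis of red cells, of 8 female Balb/c mice, all aged 3 months. Libraries were made with Illumina TruSeq v2 reagents and shared 1 lane of a HiSeq2500. The tRA group consisted of 4 mice dosed orally each day from weaning with all-trans-retinoic acid (tRA), the active form of vitamin A, at 1 mg/kg body weight. The other 4 mice formed the control group. The control treatment in the paper is the vehicle alone, canola oil. No mouse of either group received pristane, the oil used elsewhere in the study to induce lupus. The sample titles name the group of each mouse, whereas the treatment field of the labels gives 1 mg/kg of tRA for all 8, and the grouping here follows the titles. Counts on genes totaled 30919272 to 37539631 per control mouse and 31810417 to 35165876 per tRA mouse. The question was whether oral tRA, given before any induction of disease, shifts the expression of these molecules in the spleen.

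A naive T cell needs a signal through CD28, which binds CD80 and CD86, besides the signal of its antigen receptor. Engagement of CD40 by CD40 ligand raises CD80 and CD86 on the presenting cell, while CD274 (PD-L1) and PDCD1LG2 (PD-L2) bind PD-1 on the T cell and restrain it. BTLA is abundant on mouse B cells and is also found on T cells and dendritic cells, and its binding of HVEM is inhibitory.

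The label of the tissue was checked against markers of B and T cells. The 10 B-cell markers summed to 8495, 8096, 7712 and 7244 CPM (TMM-normalized counts relative to library size) in control mice 1 to 4 and to 7855, 8055, 8029.5 and 7929 CPM in tRA mice 1 to 4. The 10 T-cell markers summed to 1627, 1721, 1869.5 and 1973 CPM in the control mice and to 1965, 1921, 1968 and 1978 CPM in the tRA mice. No marker of either list was at 0 in any mouse, so transcripts of both cell types were present in all 8 libraries. In such bulk RNA, fewer cells of a type and less RNA per cell cannot be told apart, and this holds for every gene below.

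Among the 10 members, 0 differed between tRA and control at a false discovery rate (FDR) under 0.1, adjusted over all 16484 genes, in edgeR's quasi-likelihood test. The background was 0 genes, or 0% of those tested, and the lowest FDR of any gene was 0.135. DESeq2 gave 27 genes at that threshold, with 0 of the members among them. At an unadjusted p under 0.05 there were 2 of the 10 members, Btla and Cd28, both higher with tRA, beside 1070 of all genes tested (6.49%). In 1 member, Btla, every tRA mouse lay above every control mouse, which was the case for 315 genes (1.91%). In 0 members did every tRA mouse lie below every control mouse, which was the case for 269 genes (1.63%). The log2 fold changes of the members, tRA over control, had a median of 0.04 with 5 positive and 5 negative, beside a median of 0.001 over all genes tested.

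**Figure D1:**
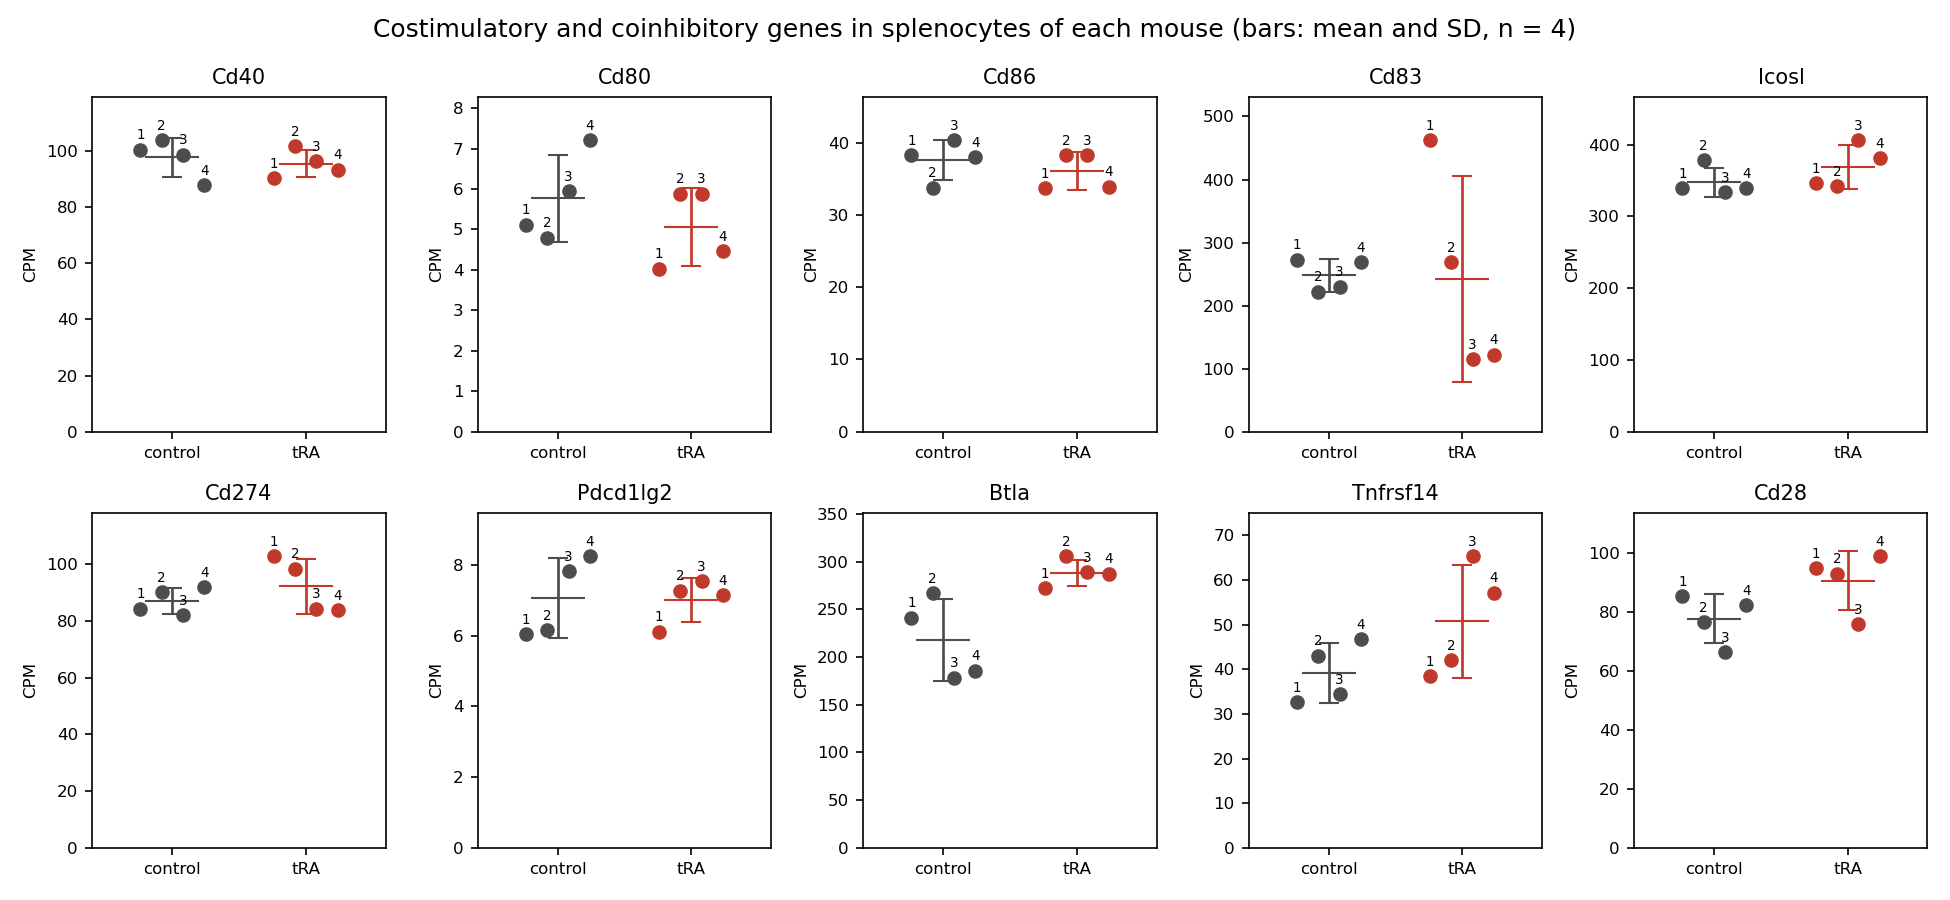
Level of each of the 10 genes, in CPM after TMM normalization on linear axes that start at 0, for control mice (gray) and tRA mice (red). Numbered points are mice, and bars are the mean and SD (n = 4). Btla is the gene whose tRA mice all lie above the control mice, and the tRA mice of Cd83 spread from 115 to 462 CPM.

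The levels of the members were first ordered by CPM per kb of exonic length, which permits a comparison between genes. Cd83 was at 95.4 ± 42.0 CPM per kb (mean ± SD over 8 mice), Icosl at 77.6 ± 5.75 and Btla at 74.6 ± 14.1. Each of these 3 ranked first in at least 1 mouse, so their order was not fixed. Tnfrsf14 (31.3 ± 7.81), Cd40 (28.4 ± 1.66) and Cd274 (24.7 ± 2.09) followed in CPM per kb, and their order also varied between mice. Cd28 at 13.8 ± 1.81 CPM per kb and Cd86 at 10.1 ± 0.713 shared ranks 7 and 8, with Cd28 the higher in every mouse but control mouse 3. Pdcd1lg2 at 3.59 ± 0.432 CPM per kb was rank 9 and Cd80 at 1.46 ± 0.275 was rank 10 in all 8 mice. Per kb of transcript, Cd80 and Pdcd1lg2 were thus the scarcest of the 10 in these splenocytes.

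CD80 and CD86 are the ligands that CD28 and its inhibitory counterpart CTLA-4 share. Cd86 (ENSMUSG00000022901, chromosome 16 from 36603869 to 36666081, minus strand) ranged from 33.8 to 40.4 CPM in the control mice and from 33.7 to 38.3 CPM in the tRA mice. Cd80 (ENSMUSG00000075122, chromosome 16 from 38455561 to 38496335) ranged from 4.79 to 7.21 CPM in the control mice and from 4.03 to 5.89 CPM in the tRA mice. For both genes the groups overlapped. For Cd86 the log2 fold change was -0.06 (95% interval -0.24 to 0.12, FDR 0.889). For Cd80 it was -0.18 (95% interval -0.58 to 0.21, FDR 0.856), and the wider interval goes with only 132 to 223 counts per mouse, against 1086 to 1414 for Cd86. Both log2 fold changes were negative in all 16 alternative fits, from -0.11 to -0.03 for Cd86 and from -0.27 to -0.06 for Cd80, where the smallest was without control mouse 4.

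Cd40 (ENSMUSG00000017652, chromosome 2 from 165055627 to 165072948) was among the steadiest of the members. Its level was 100.5, 104, 98.6 and 87.9 CPM in control mice 1 to 4 and 90.4, 102, 96.3 and 93.3 CPM in tRA mice 1 to 4. Control mouse 4 was the lowest of the 8 and control mouse 2 the highest, with the tRA mice all between them. Between the groups the log2 fold change was -0.03 (standard error 0.0701, 95% interval -0.19 to 0.12, FDR 0.934 from edgeR). It was -0.081 without control mouse 4 and -0.0035 without control mouse 2.

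Cd83 (ENSMUSG00000015396, chromosome 13 from 43784775 to 43803132), a surface molecule of activated dendritic cells and B cells that stabilizes MHC class II and CD86 on the membrane, varied most. It was at 273, 222, 230.2 and 269 CPM in control mice 1 to 4 and at 462, 268, 115 and 122 CPM in tRA mice 1 to 4. The 4 control mice lay close together, tRA mouse 1 stood above all of them, tRA mouse 2 among them, and tRA mice 3 and 4 below all of them. The group means were 248 ± 26.2 CPM (SD, n = 4) for control and 242 ± 163 CPM (SD, n = 4) for tRA, so the means were close while the SD of the tRA group was larger. Its log2 fold change was -0.04 (standard error 0.369, FDR 0.990 from edgeR), with a 95% interval of -0.85 to 0.78 that leaves room for a change of either sign. It was -0.56 without tRA mouse 1 and 0.19 without tRA mouse 3, so its sign depended on single mice.

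A list of 17 immediate early genes, which are transcribed within minutes of cell stimulation or handling, varied across the tRA mice in the same order as Cd83. The list summed to 19849.9, 19161, 18136 and 16676 CPM in control mice 1 to 4 and to 19520.2, 15155, 7442 and 9231 CPM in tRA mice 1 to 4. As with Cd83, tRA mouse 1 was the highest tRA mouse and tRA mice 3 and 4 were below all control mice, but tRA mouse 2 was below them too and tRA mouse 1 lay within the control range. Of the 17 genes, 17 had a negative log2 fold change, with a median of -0.44, and 3 (Fosb, Jun and Egr1) had an unadjusted p under 0.05, all with the groups apart. Among all 16484 genes tested, 8194 had a negative log2 fold change and 6.49% had an unadjusted p under 0.05. In 1.63% of them every tRA mouse lay below every control mouse. The most abundant gene of the list over the 8 mice, Fos, was at 3337, 3230.3, 3302 and 2866 CPM in the control mice and 3563, 2762, 1117 and 1420.2 CPM in the tRA mice. None of the 17 was at 0 in any mouse, and the part of this list in the spread of Cd83 was not tested.

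**Figure D2:**
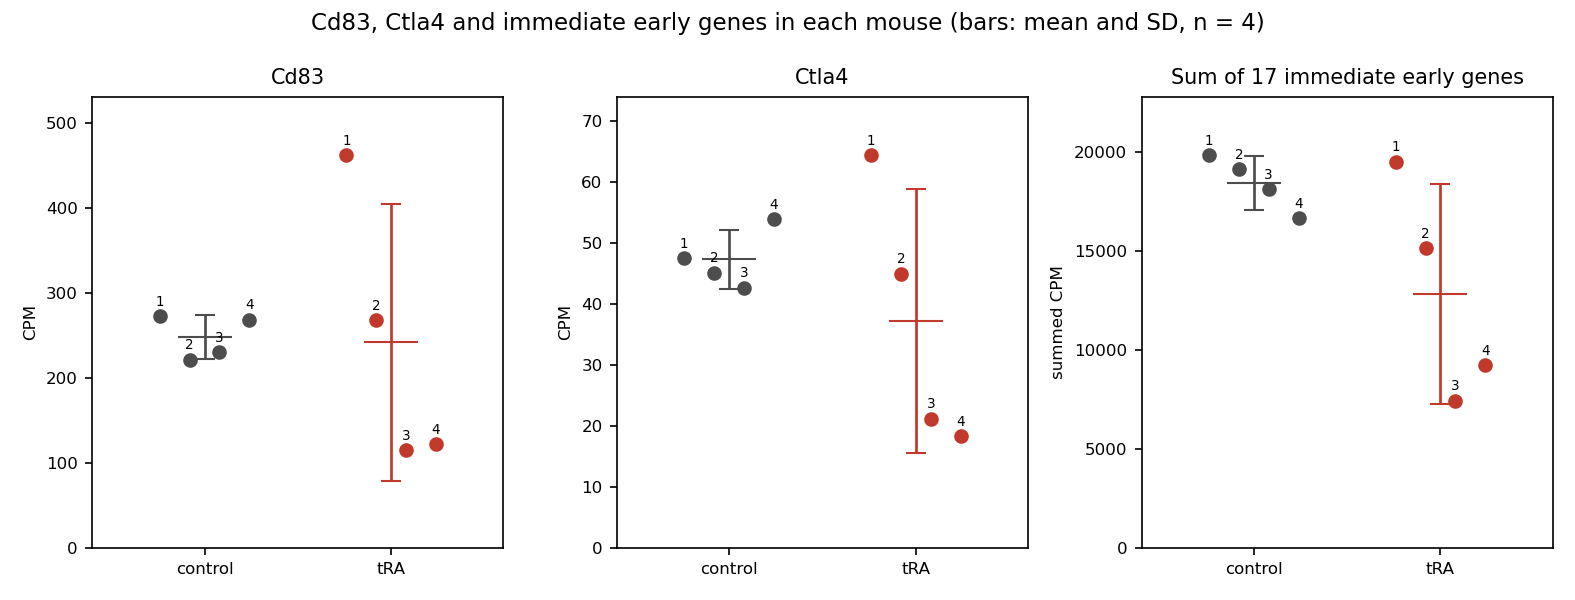
Cd83 and Ctla4 in CPM and the summed CPM of 17 immediate early genes for each mouse, control in gray and tRA in red, with the mean and SD (n = 4) as bars and axes that start at 0. In all 3 panels tRA mouse 1 is the highest tRA mouse and tRA mice 3 and 4 lie below every control mouse.

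Icosl (ENSMUSG00000000732, chromosome 10 from 78069302 to 78083913), the ligand through which B cells and dendritic cells sustain ICOS-expressing helper T cells, was at 339, 378, 334 and 339 CPM in control mice 1 to 4 and at 346, 342, 406 and 381 CPM in tRA mice 1 to 4. Mice 3 and 4 of the tRA group were the highest of all, while control mouse 2 exceeded tRA mice 1 and 2, and the groups overlapped. Icosl had a log2 fold change of 0.09 (95% interval -0.09 to 0.26, FDR 0.849), which was 0.03 without tRA mouse 3 and 0.13 without control mouse 2.

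The PD-1 ligands lie side by side on chromosome 19. Cd274 (ENSMUSG00000016496, from 29367455 to 29388095), which encodes PD-L1 and is made by many cell types, ranged from 82.0 to 91.7 CPM in control and from 83.7 to 103 CPM in tRA mice. Pdcd1lg2 (ENSMUSG00000016498, from 29410919 to 29471161), which encodes PD-L2 and is restricted mainly to dendritic cells, macrophages and some B cells, ranged from 6.04 to 8.24 CPM in control and from 6.11 to 7.54 CPM in tRA mice. Both genes overlapped between the groups, with tRA mice 1 and 2 above all control mice for Cd274. Cd274 had a log2 fold change of 0.08 (95% interval -0.10 to 0.26, FDR 0.858), which was 0.03 without tRA mouse 1 and 0.13 without tRA mouse 4. For Pdcd1lg2 it was -0.009 (95% interval -0.32 to 0.30, FDR 0.993) on 198 to 278 counts per mouse, and its sign turned in 6 of 16 alternatives. An antisense gene, AC119228.1, shares 511 exonic bases with Cd274, and as no source states whether the counting used the strand, reads on this stretch of the 3622 exonic bases of Cd274 cannot be told apart from its own.

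Btla (ENSMUSG00000052013, chromosome 16 from 45224315 to 45257670) encodes the inhibitory receptor that HVEM engages. It had the largest log2 fold change of the members, although that of Tnfrsf14 was larger in 5 of the 16 alternatives. Its level was 241, 267, 179 and 186 CPM in control mice 1 to 4 and 272, 305, 289 and 287 CPM in tRA mice 1 to 4. Control mice 3 and 4 were low and control mice 1 and 2 higher, and all 4 tRA mice lay above all 4 control mice, with tRA mouse 1 only just above control mouse 2. The mean was 218 ± 42.8 CPM (SD, n = 4) in control and 288 ± 13.6 CPM (SD, n = 4) in tRA mice, a difference of 32.3%. This is a log2 fold change of 0.40 (standard error 0.122, 95% interval 0.14 to 0.67), with an unadjusted p of 0.00704 and an FDR of 0.757 in edgeR's quasi-likelihood test. Btla therefore did not pass the threshold over all genes. Its log2 fold change was positive in all 16 alternatives, from 0.31 to 0.51, with an unadjusted p from 0.000919 to 0.0236 and an FDR from 0.253 to 0.999. The separation of the groups was less stable, since the highest control mouse passed the lowest tRA mouse when library size alone was used (269 against 264 CPM) and with an offset for length and GC content (278 against 263 CPM).

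The B-cell markers moved less than Btla between the groups. Of the 10 markers, 6 had a positive and 4 a negative log2 fold change, with a median of 0.02, and the most abundant, Cd79a, was at 1396 ± 110.2 CPM (SD, n = 4) in control and 1271 ± 86.9 CPM (SD, n = 4) in tRA mice. Within the groups their sum broadly followed Btla, since control mice 1 and 2 lay above control mice 3 and 4 in both, and the 4 tRA mice stood in the same order. Between the groups the sums overlapped. The part of B-cell content in the level of Btla was not tested.

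Tnfrsf14 (ENSMUSG00000042333, chromosome 4 from 154921933 to 154928563, minus strand) encodes HVEM, the ligand of BTLA, and also binds LIGHT, lymphotoxin alpha and CD160. It was at 32.6, 43.1, 34.5 and 46.7 CPM in control mice 1 to 4 and at 38.5, 42.0, 65.3 and 57.2 CPM in tRA mice 1 to 4. Mice 3 and 4 of the tRA group stood above all control mice, whereas tRA mice 1 and 2 lay within the control range. For Tnfrsf14 the log2 fold change was 0.37 (standard error 0.173, 95% interval -0.01 to 0.76, unadjusted p 0.0556, FDR 0.761 from edgeR). It was smallest, 0.23, without tRA mouse 3 and largest, 0.48, without tRA mouse 1, and its unadjusted p was under 0.05 in 8 of the 16 alternatives.

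Cd28 (ENSMUSG00000026012, chromosome 1 from 60716800 to 60773359), the receptor on T cells that delivers the main costimulatory signal, was at 85.5, 76.7, 66.5 and 82.3 CPM in control mice 1 to 4 and at 95.05, 93.11, 76.03 and 98.97 CPM in tRA mice 1 to 4. Mice 1, 2 and 4 of the tRA group lay above every control mouse, and tRA mouse 3 lay below 3 of the 4. Cd28 had a log2 fold change of 0.22 (unadjusted p 0.0482, FDR 0.757 from edgeR), with a 95% interval of 0.002 to 0.44. Its unadjusted p was under 0.05 in 8 of the 16 alternatives, and the log2 fold change was positive in all 16. The T-cell markers leaned the same way as Cd28, since 9 of the 10 had a positive log2 fold change with a median of 0.11, and 0 of them had an unadjusted p under 0.05. The most abundant of them, Thy1, was at 292 ± 20.9 CPM (SD, n = 4) in control and 315 ± 9.55 CPM (SD, n = 4) in tRA mice. Within the groups the summed T-cell markers did not follow Cd28 closely. Control mouse 1 had the lowest sum of the control mice (1627 CPM) and the highest Cd28. In the tRA group, mouse 3 had the lowest Cd28 at a sum of 1968 CPM, while mouse 4 was highest in both. The part of T-cell content in the level of Cd28 was not tested.

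**Figure D3:**
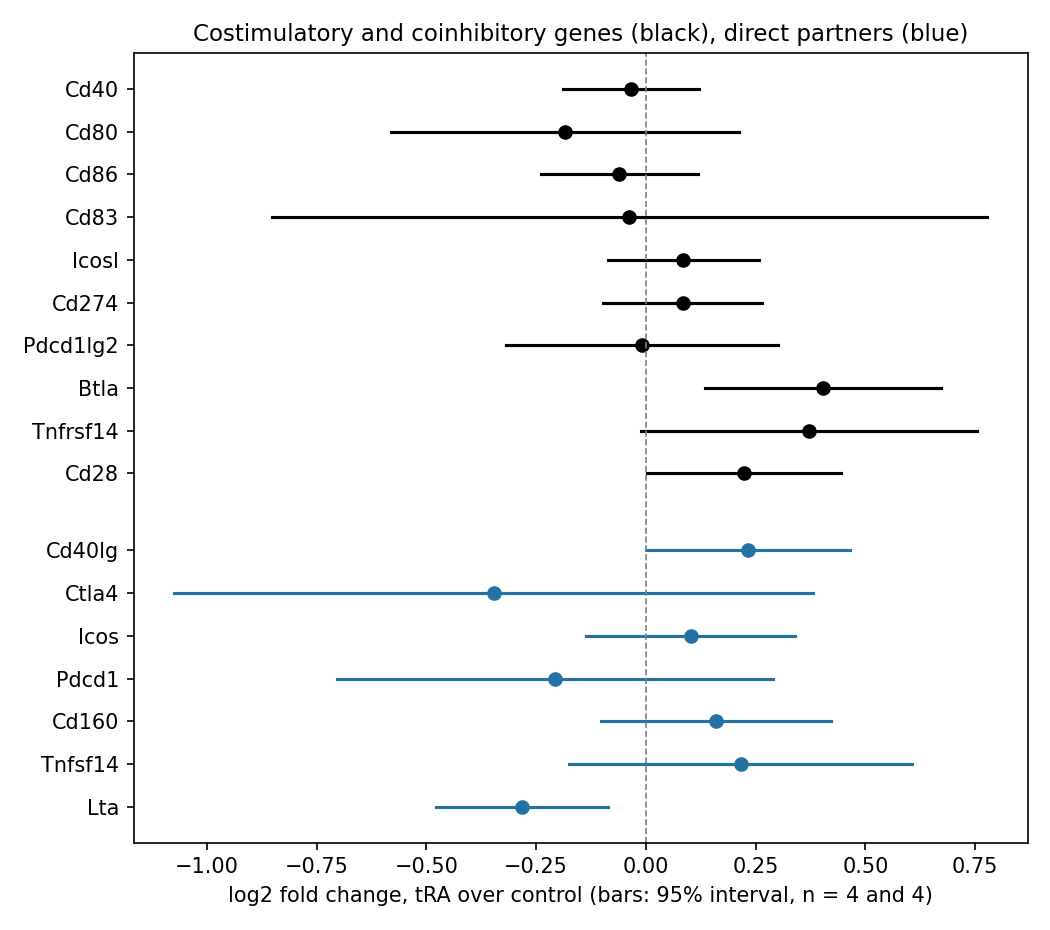
Log2 fold change, tRA over control, of the 10 genes (black) and of 7 direct partners (blue), with bars for the 95% interval from edgeR's quasi-likelihood test (4 mice a group). The intervals of Btla (0.14 to 0.67), Cd28 and Lta do not include 0, and none of the 17 genes has an FDR under 0.1.

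The genes for the direct binding partners of the members are Cd40lg, Ctla4, Icos, Pdcd1, Cd160, Tnfsf14 and Lta. Of these 7, 0 passed an FDR of 0.1 and 1 had an unadjusted p under 0.05, with 4 positive and 3 negative log2 fold changes and a median of 0.10. Lta, which encodes lymphotoxin alpha and binds HVEM, was at 31.8, 37.0, 34.0 and 36.5 CPM in control mice 1 to 4 and at 24.6, 30.2, 29.0 and 30.6 CPM in tRA mice 1 to 4. All 4 tRA mice lay below all 4 control mice, as in 1.63% of all genes tested, and opposite in direction to Tnfrsf14. For Lta the log2 fold change was -0.28 (standard error 0.0888, unadjusted p 0.00882, FDR 0.757 from edgeR), and with an offset for length and GC content it was -0.17 (unadjusted p 0.145).

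Ctla4, the inhibitory receptor for CD80 and CD86, resembled Cd83 in its spread. It was at 47.5, 45.2, 42.7 and 53.9 CPM in control mice 1 to 4 and at 64.4, 45.0, 21.2 and 18.3 CPM in tRA mice 1 to 4. As for Cd83, tRA mouse 1 was above, and tRA mice 3 and 4 below, all control mice, and the log2 fold change of -0.35 had a 95% interval of -1.07 to 0.38. Over the alternatives the log2 fold change of Ctla4 ranged from -0.75 to -0.12. Cd40lg, the T-cell ligand of CD40, had a mean of 23.1 ± 2.15 CPM (SD, n = 4) in control and 27.2 ± 3.45 CPM (SD, n = 4) in tRA mice, with a log2 fold change of 0.23 (95% interval -4.7e-04 to 0.47). The other HVEM ligands, Tnfsf14 (LIGHT) and Cd160, had log2 fold changes of 0.22 (95% interval -0.17 to 0.61) and 0.16 (-0.10 to 0.42). For Icos, the receptor of ICOS ligand, the log2 fold change was 0.10 (-0.14 to 0.34), and for Pdcd1, which encodes PD-1, it was -0.21 (-0.70 to 0.29) at only 2.23 to 4.59 CPM. Over the alternatives the log2 fold change ranged from 0.015 to 0.17 for Icos and from -0.38 to -0.07 for Pdcd1. The range was 0.11 to 0.33 for Tnfsf14, 0.11 to 0.20 for Cd160 and 0.15 to 0.30 for Cd40lg. In these 5 genes the groups overlapped.

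Around the members, 6 lists of partner and pathway genes held 63 genes tested, of which 5 (7.94%, beside 6.49% of all genes) had an unadjusted p under 0.05, 4 of them higher with tRA, and 0 an FDR under 0.1. Besides Lta these were Cd200, Pvr and Cd226 among 14 further B7, immunoglobulin family and nectin checkpoint genes, and Lcp2 among 13 genes of CD28 and coinhibitory signaling. Cd200, an inhibitory ligand on B cells and dendritic cells, was at 31.3 ± 2.81 CPM (SD, n = 4) in control and 37.0 ± 4.35 CPM (SD, n = 4) in tRA mice, a log2 fold change of 0.24 (unadjusted p 0.0352 from edgeR). Pvr, a ligand of the costimulatory receptor CD226, had a log2 fold change of 0.21 (standard error 0.0876), and Cd226 itself one of 0.22 (standard error 0.0958). With the offset for length and GC content these were 0.18 for Pvr (unadjusted p 0.0726 from edgeR) and 0.10 for Cd226 (unadjusted p 0.386 from edgeR). Lcp2, the adaptor SLP-76 downstream of the antigen receptor, was at 180.0, 190.4, 202 and 208 CPM in the control mice and 218, 210.1, 224 and 222 CPM in the tRA mice. All 4 tRA mice lay above the control mice for Lcp2 (log2 fold change 0.17, standard error 0.0649), as in 1.91% of all genes tested, while for Cd200, Pvr and Cd226 the groups overlapped. The list of CD28 and coinhibitory signaling had a median log2 fold change of 0.06 and that of further checkpoint genes 0.03. With 1 mouse left out, the partner and pathway genes at an unadjusted p under 0.05 ran from 2 (without tRA mouse 2) to 14 (without tRA mouse 1). Of all genes, 762 of 16760 and 2105 of 16683 were at that level in these fits.

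Downstream of CD40, 0 of 15 signaling genes had an unadjusted p under 0.05, and the median log2 fold change was -0.06. Nfkb2, the subunit of the noncanonical NF-κB pathway that CD40 engages, was the 1 gene of the list whose tRA mice all lay below the control mice, at 198 ± 2.34 against 214 ± 15.4 CPM (SD, n = 4). The groups were only just apart, with the highest tRA mouse at 199.6 and the lowest control mouse at 201.6 CPM. Of all genes tested, 1.63% had every tRA mouse below every control mouse. Tnfaip3, an inhibitor of NF-κB, was the most abundant gene of the list, at 732, 644, 447 and 610.2 CPM in the control mice and 960.2, 606, 155 and 211 CPM in the tRA mice, and its 4 tRA mice stood in the same order as those of Cd83 and Fos. The 9 tested genes of TNF family costimulation (0 with an unadjusted p under 0.05) had a median log2 fold change of -0.16. The 5 genes that govern turnover of these ligands at the cell surface (0 with an unadjusted p under 0.05) had a median of 0.07. March1, which drives CD86 and MHC class II off the surface, was the most abundant of the latter, with 118 ± 21.4 CPM in control and 144 ± 23.0 CPM in tRA mice (SD, n = 4, groups overlapping). A list of 8 retinoid response genes had 5 genes tested, 0 of them with an unadjusted p under 0.05, with 2 positive and 3 negative log2 fold changes from -0.52 to 0.43.

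Other cell types that carry the members were read from their marker lists. The 10 conventional dendritic cell markers, of a cell that is rich in Cd80, Cd86, Cd83 and Pdcd1lg2, summed to 468, 406, 404 and 465 CPM in control mice 1 to 4 and to 578, 417, 369 and 340.1 CPM in tRA mice 1 to 4. The most abundant of them was Ccr7, which naive T cells also express, at 228 to 315 CPM in the control mice and 435, 253, 184 and 169 CPM in the tRA mice, with tRA mouse 1 highest and tRA mice 3 and 4 lowest as for Cd83. Ccr7 made up most of the sum, with a control mean of 258 of 436 CPM. By contrast, tRA mouse 1 was the lowest tRA mouse for Flt3, Zbtb46, Itgax, Clec10a and Cd209a. It was neither the highest nor the lowest for Batf3, Xcr1, Clec9a and Fscn1. Of the 10, 3 had a positive and 7 a negative log2 fold change (median -0.11), 1 in each direction had an unadjusted p under 0.05, none was at 0, and their part in the levels of these members was not tested. The cell type lists with the most markers at an unadjusted p under 0.05 were neutrophils and precursors, with 8 of 10, all lower with tRA (median -0.76), and plasma cells, with 3 of 7, also lower (median -0.17). The other 2 neutrophil markers had positive log2 fold changes (the most abundant, Csf3r, 0.25), as had 3 of the 7 plasma cell markers. Of all 16484 genes tested, 585 were lower and 485 higher with tRA at an unadjusted p under 0.05, which is 6.49% together. The neutrophil list, whose most abundant gene was Csf3r, summed to 1040.4, 1503, 1364 and 1247 CPM in the control mice and 832, 837, 753 and 1231 CPM in the tRA mice, and the plasma cell list, led by Jchain, to 1071, 1026, 1044 and 1230.1 CPM and 944, 1071, 810.4 and 821 CPM. No marker of these lists was at 0, and their part in the members' values was not tested. The median log2 fold change was -0.10 for plasmacytoid dendritic cells (led by Tcf4, with 1 of 6 markers in each direction at an unadjusted p under 0.05), -0.01 for monocytes and macrophages (Lyz2), -0.05 for NK cells (Gzma), 0.43 for erythroid cells (Hbb-bs) and 0.01 for stroma and endothelium (Pecam1). The erythroid sums spread widely, from 493 to 2400 CPM in the control mice and from 590 to 3548 CPM in the tRA mice. Of the 7 erythroid markers, 5 had a positive and 2 a negative log2 fold change, with 0 at an unadjusted p under 0.05.

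The members were compared with each other across the 8 mice, over 45 pairs, on log2 CPM. The correlations describe these 8 libraries, which share their processing and 2 groups, and carry no test. Cd80 varied with Cd86 (Pearson r = 0.79, Spearman rho = 0.74, n = 8), and r was 0.89 without the 2 mice farthest from the median of Cd80. Cd80 also varied with Pdcd1lg2 (r = 0.80, rho = 0.81, n = 8), with r at 0.59 over the 6 mice left. Cd83 varied with Cd274 (r = 0.71, rho = 0.64, n = 8), and r stayed at 0.71 over 6 mice. After the group means were taken out, r was 0.77, 0.86 and 0.87 for these 3 pairs.

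The highest r of any pair joined Icosl with Tnfrsf14 (0.84, rho = 0.69, n = 8), but it was 0.39 over 6 mice and thus rested on the mice with extreme Icosl, and it was 0.80 once the group means were taken out. Cd83 ran opposite to Icosl (r = -0.77, rho = -0.60, n = 8) and to Tnfrsf14 (r = -0.77, rho = -0.71, n = 8). Both relations rested on the extreme mice of Cd83, since r was -0.19 and -0.07 without 2 of them, while with the group means taken out r was -0.76 and -0.79. Btla and its ligand Tnfrsf14 had r = 0.43 (rho = 0.48, n = 8), which was 0.64 over 6 mice and 0.02 without the group means. For Btla and Cd28, the members with the smallest unadjusted p, r was 0.61 (rho = 0.45, n = 8), 0.25 over 6 mice and 0.27 without the group means.

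Among the 16484 genes tested, the 3 whose log2 CPM followed each member most closely over the 8 mice were listed by Pearson r. For Btla these were H2-Ob (r = 0.98), which encodes a chain of the MHC class II modulator of B cells, Yod1 and Stx16. H2-Ob was at 437, 441, 395 and 385 CPM in the control mice and 448, 471, 463 and 449 CPM in the tRA mice, with all tRA mice above all control mice. For Cd83 they were the transcription factor Ets2 (r = 0.99), the urokinase receptor Plaur (0.98) and Fas ligand, Fasl (0.98). Plaur repeated the pattern of Cd83, at 146, 132, 137 and 176 CPM in the control mice and 243, 161, 64.9 and 82.3 CPM in the tRA mice. For Icosl they were Zbtb49, Ndor1 and Ptger1, for Tnfrsf14 Pcsk7, Trappc12 and Gm48719, and for Cd28 Zfp281 (r = 0.99), Ythdf3 and Fcho2. For Cd40 they were Dtwd2, Kmo and Nfu1, for Cd86 Eif2b3, Zfp248 and Gm37695, and for Cd80 Sema7a, Exoc3l4 and C1qtnf6. For Cd274 they were Zfp212, Slc26a10 and Gm47021, and for Pdcd1lg2 Gm7435, Gm12568 and Ccdc191, of which Gm7435 stayed under 1 CPM. Since only the best of all tested genes over 8 mice are shown, r lies from 0.92 to 0.99 for all 30 by selection. The separate groups of H2-Ob and the pattern of Plaur come with the same selection, so they are not independent of Btla and Cd83.

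Promoter sequence was available from RefSeq (GRCm38.p6) for 6 of the members, Cd80, Icosl, Cd274, Pdcd1lg2, Btla and Tnfrsf14, and none was taken for Cd40, Cd86, Cd83 and Cd28. The 250 bases before each start of transcription were searched on both strands. The motifs were the core hexamers AGGTCA and AGTTCA of retinoic acid response elements, their direct repeats spaced by 1, 2 or 5 bases, the AP-1-like motif TGANTCA and the NF-κB-like motif GGANTTTCC. TGANTCA allows any base at its center and is thus looser than the AP-1 site bound by Fos and Jun proteins. Of all 32851 promoters searched, 14% hold AGGTCA, 11.8% AGTTCA, 6.75% the AP-1-like motif and 1.07% the NF-κB-like motif, and the repeats are in 0.067%, 0.0365% and 0.0335% at spacings of 1, 2 and 5. Cd274 held AGTTCA once, on the opposite strand at 20 bases before the start, so that it reads TGAACT on the sense strand. Cd80 held the AP-1-like motif once, as TGATTCA at 42 bases before the start, where the pattern TGANTCA matches both strands. This match has T at the free central base. None of the other 4 windows held any of these letters, and no direct repeat was found in the 6. A match is a description of the letters only, and no binding was measured in these mice.

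The sequence before Btla is shown because it is the member whose groups were apart, and those of Cd80 and Cd274 because they hold the matches, given in capitals. Each reads 5′ to 3′ along the plus strand, which is the sense strand of the 3 genes. The runs lie at chr16:45224087-45224314, chr16:38458683-38458932 and chr19:29367188-29367437 (GRCm38), end at the base before the RefSeq start or earlier, and hold no base that GENCODE counts as exonic for the same gene. Exons of other genes were not checked. GENCODE also has an earlier start for Cd80, so that the run before the RefSeq start lies inside its gene. For Btla this leaves 228 bases, since GENCODE starts the gene 22 bases earlier than RefSeq.
Btla: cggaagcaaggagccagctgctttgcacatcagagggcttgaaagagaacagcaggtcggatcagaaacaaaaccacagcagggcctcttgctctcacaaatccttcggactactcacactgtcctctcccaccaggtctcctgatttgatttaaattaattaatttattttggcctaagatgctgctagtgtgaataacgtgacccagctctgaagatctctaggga
Cd80: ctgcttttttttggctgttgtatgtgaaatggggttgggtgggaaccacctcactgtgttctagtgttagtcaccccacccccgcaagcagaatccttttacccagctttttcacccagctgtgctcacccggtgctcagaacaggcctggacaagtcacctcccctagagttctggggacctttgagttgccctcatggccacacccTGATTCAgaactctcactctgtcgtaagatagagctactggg
Cd274: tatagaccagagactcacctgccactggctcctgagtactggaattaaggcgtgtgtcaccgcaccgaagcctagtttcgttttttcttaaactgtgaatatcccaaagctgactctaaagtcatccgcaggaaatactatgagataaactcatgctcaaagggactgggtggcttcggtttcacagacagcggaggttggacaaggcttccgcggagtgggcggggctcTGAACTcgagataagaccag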

How the data were processed

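Total splenocyte RNA of 4 tRA and 4 control mice was sequenced. The authors deposited raw counts per Ensembl gene. Their paper names ea-utils, Btrim, Bowtie2/Tophat2 and HTSeq, whereas the submitters' processing notes name STAR 2.5.2b, featureCounts 1.5.1 and GRCm38, and which made the counts is not stated, nor whether strand was used. The authors' other deposited table holds a DESeq2 comparison (mean normalized counts, log2 fold changes, standard errors, test statistics and p-values) and was not used.

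Counts were analyzed in R 4.3.3 with edgeR 4.0.16 (filterByExpr with a minimum of 10, TMM, glmQLFit and glmQLFTest on group, Benjamini-Hochberg over all genes tested, FDR under 0.1). The fits were tested on simulated data first. CPM are TMM-normalized, and lengths are unions of exons in GENCODE M21. Intervals and standard errors come from the F statistic. No library of a group looked like another one deposited again, as their counts differed beyond sampling noise (chi-square per degree of freedom from 12.9 to 65.4). Alternatives were DESeq2 1.42.0, RLE or library size alone, other filters, a replicate block, a loess offset for length and GC content (span 0.3, degree 1), and each mouse left out. Figures were drawn in Python 3.11.15 with matplotlib 3.10.9.

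The members and lists were chosen with earlier results of these data known. The alternatives for separate groups were chosen after seeing the data. Named genes were all members and direct partners, pathway genes with separate groups or an unadjusted p under 0.05 (at most 4 per list), the most abundant gene of each cell type list, and the 3 genes most correlated with each member. Jun, Fosb, Egr1, Fos, Tnfaip3, March1, Cd27 and the conventional dendritic cell markers other than Ccr7 were named after their values were seen.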

Additional observations from a re-analysis of the deposited data

Results flagged for a closer look

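Each group of 4 mice was searched for a mouse far from the rest of its group, over the 10 members and the 7 direct partners, which makes 34 groups. Chance gives about 1 such group in 20. One group stood out, the control group of Icosl, in which control mouse 2 was at 378 CPM and the other 3 at 334 to 339 CPM. The gap to the nearest mouse made up 0.886 of the range of the group, more than the Dixon test allows at a level of 0.05. The log2 fold change of Icosl was 0.13 without control mouse 2 and 0.03 without tRA mouse 3. The cause was not tested.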

How the results depend on the processing

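In all 16 alternatives 0 members passed an FDR of 0.1, and Btla, Tnfrsf14, Cd28, Icosl and Cd274 kept a positive and Cd40, Cd80 and Cd86 a negative log2 fold change. Genes with an FDR under 0.1 numbered 27 with DESeq2, 6 without a filter on low counts, and 0 to 3 with 1 mouse left out (3 without tRA mouse 4). Genes with an unadjusted p under 0.05 numbered 1070 of 16484 in the main analysis, 1077 of 16484 with RLE normalization, 1025 of 14841 where each sample needed at least 10 counts, 1247 of 29817 with DESeq2, 1592 of 29817 without a filter, 1158 of 16484 with library size alone, 953 of 16484 with the offset, 1196 of 16484 with the offset and the replicate block, and 657 (without tRA mouse 4) to 2105 (without tRA mouse 1) with 1 mouse left out. Members at that level numbered 2 in the main analysis, 1 with RLE normalization, 1 where each sample needed at least 10 counts, 3 with DESeq2, 3 without a filter, 3 with the offset and the replicate block, and 1 to 3 with 1 mouse left out. Partner and pathway genes at that level numbered 5 in the main analysis, 9 without a filter, 6 with DESeq2, 6 with library size alone, 4 with the offset, 6 with the offset and the replicate block, and 2 to 14 with 1 mouse left out (14 without tRA mouse 1). Members with separate groups, an alternative chosen after seeing the data, numbered 0 with library size alone, 0 with the length and GC offset, and 1 to 2 with 1 mouse left out (2 without control mouse 2 or tRA mouse 3). With 3 against 4 mice more genes are apart, from 5.13% to 12.7% of all genes, against 3.54% with all 8 mice. The log2 fold change of Pdcd1lg2 turned to 0.0236 with library size alone, 0.0480 with the offset and 0.0515 with the offset and the replicate block, and ranged from -0.0780 to 0.0722 with 1 mouse left out. That of Cd83 ranged from -0.56 to 0.19 with 1 mouse left out, and was positive without control mouse 1, control mouse 4, tRA mouse 3 or tRA mouse 4. The causes were not tested. With the replicate block Cd83 was at -0.274. The replicate block gave 0 genes with an FDR under 0.1, and 1200 of 16484 genes, 3 members and 10 partner and pathway genes with an unadjusted p under 0.05. The sample titles do not state whether mice with the same number share more than the number. Their deviations from the group means correlated at 0.157, -0.0229, -0.0140 and 0.259. These values cannot decide it, as there was no reference for what paired mice would give. With the offset Cd226 was at 0.0999, Lta at -0.169 and Cd28 at 0.161, and these and Pvr no longer had an unadjusted p under 0.05, while Tnfrsf14 at 0.475, Cd40lg at 0.251 and Cd27 at 0.227 now had. Library size alone moved the median of all genes to 0.0306. Of the members, Cd80 and Pdcd1lg2 had the fewest counts.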
